A study of Drosophila melanogaster with 4 samples.

Results

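The genes described here are the 44 translation initiation factor genes and the 32 aminoacyl-tRNA synthetase genes of Drosophila melanogaster, 76 of 13922 protein-coding genes on the chromosome arms. They were chosen by name: RefSeq protein-coding genes whose symbol starts with eIF, and genes named by a 3-letter amino acid code followed by RS, with or without the ending -m that marks a mitochondrial enzyme. Their DNA was examined in the 2 Dam-Pr-set7 samples of a targeted DamID experiment, in which the bacterial adenine methylase Dam fused to the histone H4 methyltransferase Pr-set7 (SETD8) marks GATC motifs near the places it visits. UAS-Dam-Pr-set7 was expressed from grh-Gal4, given in the labels as a driver for neural stem cells. Eggs were collected for 6 h and embryos were kept for 24 h at 25 °C. Larvae were then kept at 29 °C and taken 24 h after hatching. The 2 UAS-Dam samples from the same driver, 1 in each of the 2 batches, were not analysed here, so no value below is set against the background of Dam alone. Expression was not measured, and the labelled cell type was therefore not checked against its marker genes.

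Both families act before and during protein synthesis. Initiation factors bring the first methionyl-tRNA and the mRNA to the small ribosomal subunit: eIF2 carries the tRNA and is recharged with GTP by eIF2B, eIF3 is a large scaffold on the subunit, and the eIF4 proteins bind the mRNA cap and unwind the leader. Synthetases attach each amino acid to its tRNA, in the cytosol or in mitochondria. Quiescent neural stem cells grow before they divide again, under the control of insulin and TOR signalling, which acts on translation in part through the cap-binding step.

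The values are summits, single positions where the authors' peak caller found the most fragments, each with a height in fragments. Replicate 1 had 2876 summits, with a median height of 42 fragments (range 12 to 279), and replicate 2 had 4281, with a median of 37 (range 11 to 204). Each replicate is also its own batch, and read depth is unknown. Because heights are not scaled to depth, each is also given as a percentile, its rank within its own list of summits. A height sums over all cells of a sample, so more marked cells and more marking per cell cannot be told apart. A gene is called reached here when a summit lay inside its span or within 1000 bp of either end. The distances that follow are to the nearest end of the gene.

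Of the eIF genes, 6 of 44 (13.6%, exact Clopper-Pearson 95% interval 5.17 to 27.4%) were reached in both replicates. Of the synthetase genes it was 7 of 32 (21.9%, interval 9.28 to 40.0%). The share over all protein-coding genes was 18.2% (2534 of 13922), which lies inside both intervals. The intervals cover counting error only. Replicate 1 reached 12 eIF genes (27.3%, interval 15.0 to 42.8%) and 7 synthetase genes (21.9%, interval 9.28 to 40.0%), against 22.5% of all genes. In replicate 2 the numbers were 9 eIF genes (20.5%, interval 9.80 to 35.3%) and 11 synthetase genes (34.4%, interval 18.6 to 53.2%), against 28.1% of all genes. Each interval includes the share of all genes in that replicate. Replicate 2, the longer list, thus reached fewer eIF genes than replicate 1, whereas it reached every synthetase gene of replicate 1 and 4 more. Of the genes reached in replicate 1, replicate 2 missed 6 of 12 eIF genes and 0 of 7 synthetase genes. Among all genes it missed 600 of 3134. A summit in at least 1 replicate was found for 15 eIF genes (34.1%) and 11 synthetase genes (34.4%), against 32.4% of all genes. No test was made between the families, which were chosen with these data known.

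**Figure D1:**
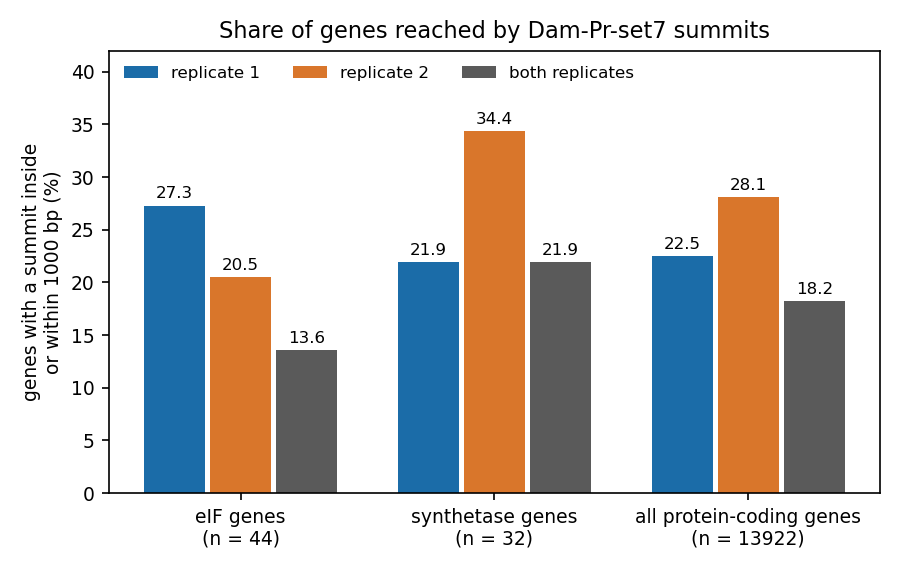
Bars give the percentage of genes with at least 1 summit inside or within 1000 bp, for eIF genes (n = 44), synthetase genes (n = 32) and all protein-coding genes (n = 13922), in Dam-Pr-set7 replicate 1, in replicate 2 and in both. The eIF share is lower in replicate 2 (20.5%) than in replicate 1 (27.3%), and the synthetase share is higher (34.4% against 21.9%), as is that of all genes (28.1% against 22.5%).

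Among the initiation factors, eIF1A had the highest summit in each replicate. It encodes a small factor that works with eIF1 in scanning for the start codon. The gene (3R, 18274665 to 18283005, dm6) had a summit of 212 fragments (percentile 98.6) in replicate 1 and one of 175 fragments (percentile 98.5) in replicate 2. These lay 641 and 523 bp beyond its high-coordinate end and 118 bp apart, in the window of CG14312 and CG8064 too. The summit of replicate 2 was inside CG14312.

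Of the 16 eIF3 genes, 3 were reached in both replicates (18.8%, against 18.2% of all genes), each with its highest summit above percentile 90 in both lists. For eIF3j (2R, 9968929 to 9970897), a loosely bound subunit, the highest summits had 188 fragments (percentile 97.4) in replicate 1 and 166 (97.8) in replicate 2. They were 14 bp apart and inside the neighbour CG12134. A lower summit of 25 fragments, in replicate 2 alone, was 106 bp beyond the other end. At eIF3k (2R, 21685283 to 21686201) both ends carried a pair. The higher pair, of 124 fragments (percentile 91.0) and 142 (95.7), lay 154 and 116 bp outside the gene on the side of stum. The other pair, of 47 and 56 fragments (percentiles 54.9 and 69.7), was inside Tbp, the gene of the TATA-binding protein. This made eIF3k the 1 gene of the 76 with a summit pair at each end. The eIF3l gene (3L, 12143446 to 12146097), whose product pairs with eIF3k, had 122 fragments (percentile 90.7) in replicate 1 and 133 (94.9) in replicate 2. Those summits were 4 bp apart, in the gap between eIF3l and Nrx-IV, the gene of the septate junction protein Neurexin IV.

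A further 4 eIF3 genes were reached in 1 replicate, which made 7 of 16 in at least 1 (43.8%, against 32.4% of all genes). The summit of eIF3f1 in replicate 1 was high, at 127 fragments (percentile 91.6), and 23 bp inside the gene, but the nearest summit of replicate 2 was 3310 bp away from it. It shared that summit with no other gene. Replicate 1 alone also reached eIF3i (52 fragments, percentile 59.8, inside Scox) and the core subunit gene eIF3b (20 fragments, percentile 12.1). The eIF3b summit, 28 bp outside the gene, was shared with Patronin, whose product binds microtubule minus ends. Replicate 2 alone reached eIF3c, another core subunit gene, with 48 fragments (percentile 62.6) at 764 bp, inside CCHa1-R. The remaining 9 eIF3 genes (56.2%, against 67.6% of all genes) were reached in neither replicate: eIF3a, eIF3d1, eIF3d2, eIF3e, eIF3f2, eIF3g1, eIF3g2, eIF3h and eIF3m.

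Of the genes for eIF2 and its exchange factor eIF2B, 5 of 8 (62.5%, against 32.4% of all genes) had a summit in at least 1 replicate, and 1 (12.5%, against 18.2%), eIF2Balpha, had one in both. This regulatory subunit gene (3R, 29934582 to 29935888) had low summits, of 20 fragments (percentile 12.1) in replicate 1 and 32 (42.9) in replicate 2, at 70 and 14 bp beyond its end next to Vps13B. Replicate 1 alone reached eIF2Bdelta (83 fragments, percentile 79.8, 38 bp inside the gene), eIF2Bbeta (41 fragments, 48.4, inside CG2680) and eIF2alpha (26 fragments, 24.9, 28 bp inside). The eIF2beta summit, of 94 fragments (percentile 86.9) at 96 bp, was in replicate 2 alone. No summit was in the window of eIF2gamma, eIF2Bgamma or eIF2Bepsilon, of which the last 2 encode the catalytic part of eIF2B.

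The eIF2A gene, for a separate factor that can bring methionyl-tRNA to the ribosome without eIF2, was the only eIF gene with its highest summit inside its own span in both replicates. At 3L, 21824740 to 21827856, the summits of 57 fragments (percentile 64.1) in replicate 1 and 91 (86.1) in replicate 2 were 14 and 42 bp inside the low-coordinate end. CG7407 lay within 1000 bp of both.

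The eIF4 genes encode the cap-binding proteins, the scaffold and the helicase with its cofactors. Of these 13 genes, 0 were reached in both replicates. Taking 3 counts as the limit for a count of 0, this allows a share of up to 23.1%, which includes the 18.2% of all genes. In at least 1 replicate 1 of 13 was reached (7.69%, against 32.4% of all genes). That summit was in eIF4EHP, the gene of a cap-binding protein that represses translation, and in replicate 2. It had 14 fragments (percentile 3.53) and lay 16746 bp inside this gene of 45884 bp. The cap-binding protein genes eIF4E1, eIF4E3, eIF4E4, eIF4E5, eIF4E6 and eIF4E7, the helicase gene eIF4A, the helicase cofactor genes eIF4B, eIF4H1 and eIF4H2 and the scaffold genes eIF4G1 and eIF4G2 had none. Around eIF4G1 on chromosome 4 the nearest summits missed the window narrowly, at 1038 bp in replicate 1 and 1025 bp in replicate 2. Those of eIF4A were 3050 and 3049 bp away, and those of eIF4E1 16905 and 8694 bp. The other eIF genes without a summit were eIF1, eIF2D, eIF5, eIF5B and eIF6.

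**Figure D2:**
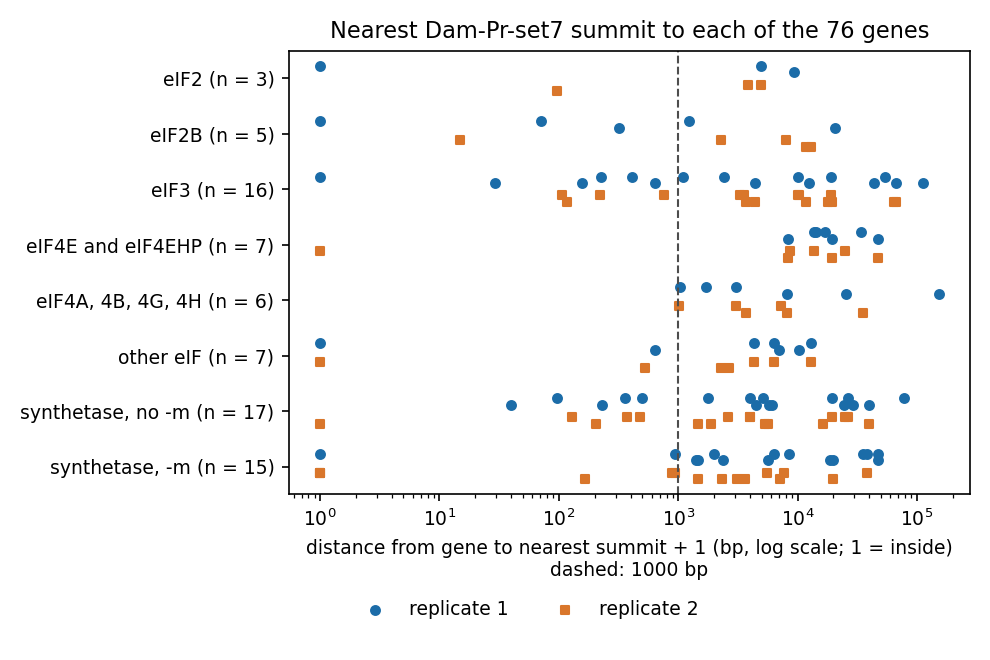
Each of the 76 genes is drawn by its distance to the nearest summit of replicate 1 (circles) and of replicate 2 (squares), plus 1, on a log scale in bp; a value of 1 means a summit inside the gene and the dashed line marks 1000 bp. Among the 13 eIF4 genes (2 rows) 1 symbol lies left of the line, the replicate 2 summit inside eIF4EHP.

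In the synthetase family, AlaRS and GlnRS, for the alanyl and glutaminyl enzymes, had the highest percentiles averaged over both replicates (96.3 and 94.4). At AlaRS (2L, 8378262 to 8381764) there were 174 fragments (percentile 96.5) in replicate 1 and 145 (96.0) in replicate 2, 494 and 481 bp beyond the gene. These were 13 bp apart and inside CG13392. GlnRS (3R, 25263267 to 25265721) had 127 fragments (percentile 91.6) and 160 (97.3) in replicates 1 and 2. They lay 229 and 206 bp outside GlnRS, within RIOK2, which encodes a kinase of small ribosomal subunit maturation.

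The other synthetase genes without -m that were reached in both replicates had lower summits. TrpRS (3R, 9265027 to 9266904) had 39 fragments (percentile 46.1) and 46 (60.2), at 95 and 129 bp, beside Vps16A in replicate 1 and inside it in replicate 2. SerRS (2L, 3035493 to 3037403) had 21 fragments (percentile 14.1) and 37 (50.4), 17 bp apart and inside CG17258. At HisRS (X, 18515428 to 18520445) the replicates did not place their summits together. The summit of replicate 1, with 17 fragments (percentile 5.18), was 39 bp outside the gene, in the window of CG6470 and Bx too. That of replicate 2, with 37 fragments (50.4), was 925 bp inside HisRS and also inside Bx. The distance between the summits was 964 bp. HisRS was the only gene of the 13 reached in both replicates whose highest summits were more than 500 bp apart, and it was the only one of the 10 members on the X chromosome (7 eIF and 3 synthetase genes) that both replicates reached, against 14.5% of all X genes.

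Of the 15 mitochondrial enzymes, IleRS-m and AsnRS-m were reached in both replicates. IleRS-m (3L, 16100280 to 16103482) was the only synthetase gene with both highest summits inside its own span, with 120 fragments (percentile 90.3) in replicate 1 and 116 (92.2) in replicate 2. They were 23 and 41 bp from the low-coordinate end, 18 bp apart, and ATPsynbetaL was in range as well. For AsnRS-m (2R, 17001994 to 17003599) the summits of 88 fragments (percentile 81.3) and 149 (96.3) were just inside the 1000 bp limit, at 932 and 895 bp, within NiPp1, a gene for an inhibitor of protein phosphatase 1. The 4 synthetase genes found in replicate 2 alone were all mitochondrial. They were SerRS-m and ProRS-m (50 fragments, percentile 64.8, each), AlaRS-m (42 fragments, 56.3) and ValRS-m (18 fragments, 13.5). Of the 15 mitochondrial enzymes, 2 were reached in replicate 1 (13.3%) and 6 in replicate 2 (40%), and of the 17 without -m the same 5 were reached in each (29.4%), around the 22.5% and 28.1% of all genes. For alanine and serine the gene without -m was reached in both replicates and the mitochondrial gene in replicate 2 alone. For tryptophan the gene without -m was reached in both and the mitochondrial gene in neither. Isoleucine and asparagine went the other way, with the mitochondrial gene reached in both and the gene without -m in neither. For valine the mitochondrial gene was reached in replicate 2 alone and the gene without -m in neither.

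**Figure D3:**
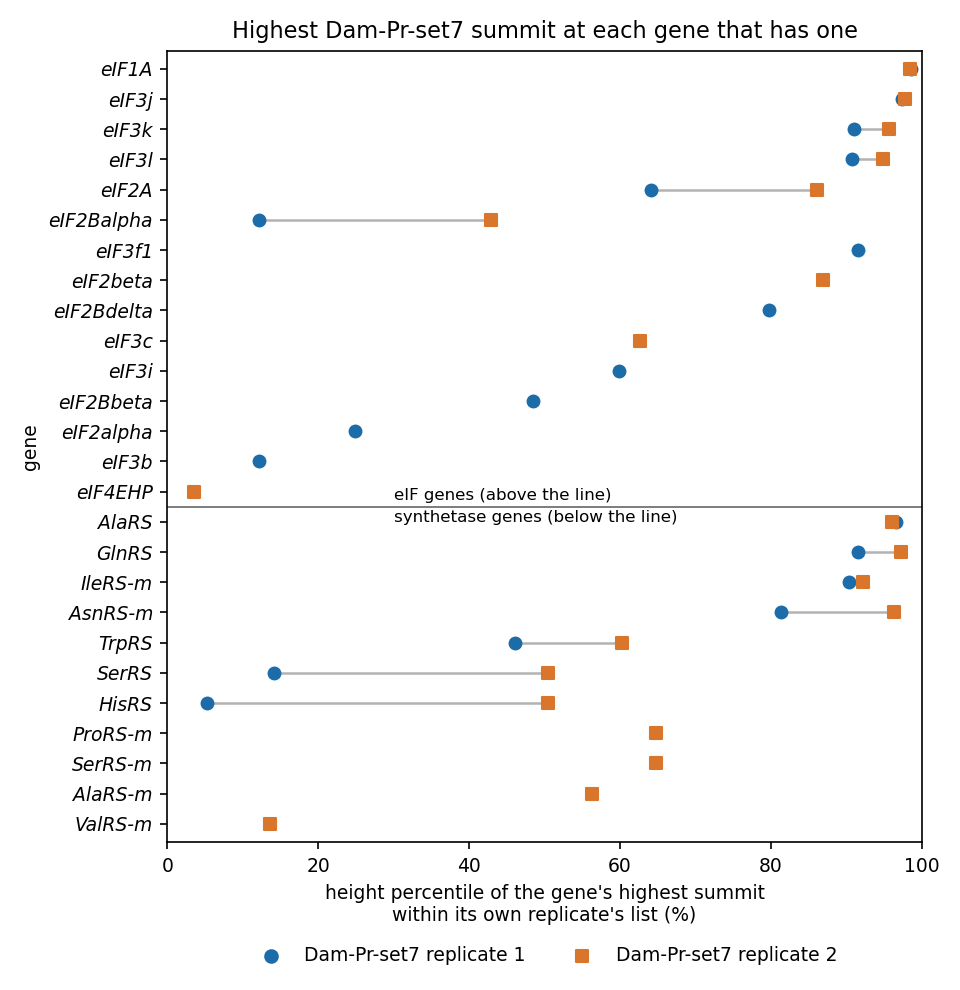
The height percentile of the highest summit is shown for the 15 eIF genes and 11 synthetase genes that had one, in replicate 1 (circles) and replicate 2 (squares), with a line joining both where both exist. For eIF1A, eIF3j, eIF3k, eIF3l, AlaRS, GlnRS and IleRS-m both symbols lie above 90%, and the 4 synthetase genes with 1 symbol have it in replicate 2.

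For the 13 members reached in both replicates, percentiles were averaged over the replicates. The median was 93.1 for the 6 eIF genes and 88.8 for the 7 synthetase genes, against 66.7 for the 2534 genes reached genome-wide. The range within each family was wide, from 27.5 (eIF2Balpha) to 98.6 (eIF1A) and from 27.8 (HisRS) to 96.3 (AlaRS), so the families overlapped. Within the synthetases, the median was 53.2 for the 5 genes without -m, below that of all genes, and 90.02 for the 2 mitochondrial genes. The medians of the members rest on few genes, and each of these 13 genes shared its highest summits with a neighbour's window. Members reached in both replicates had a median length of 2455 bp, against 3706 bp for all genes reached, whereas all members and all genes were closer in length (medians 2527 and 2163 bp).

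Most of these summits lay within range of a second gene, and many were close to a gene end. In replicate 1, 12 of 19 reached members (63.2%) had their highest summit within 250 bp of an end, against 28.6% of all reached genes. In replicate 2 it was 9 of 20 (45%), against 27.3%. Deep positions, more than 1000 bp inside the gene, occurred in 0 of 19 members and in 2 of 20 (10%, eIF4EHP and ValRS-m), against 21.2% and 23.6% of all reached genes. A gene shorter than 2000 bp cannot hold such a position, and the shares by distance from an end were not adjusted for gene length. The highest summit was also in the window of another protein-coding gene for 18 of 19 members (94.7%) in replicate 1 and 18 of 20 (90%) in replicate 2, against 68.3% and 66.3%. For 5 of the 13 members reached in both replicates (38.5%), eIF3j, AlaRS, AsnRS-m, GlnRS and SerRS, both highest summits were inside a neighbouring gene, against 21.9% genome-wide. They were inside the member itself for 2 (15.4%), eIF2A and IleRS-m, against 50.6%. With a summit assigned only to its nearest gene, or to every gene tied for nearest, 3 of the 13 remained (23.1%), against 66.5% of all genes. They were eIF2A, IleRS-m and HisRS, and HisRS was tied with Bx in replicate 2, where the summit was inside both genes. Gene strand, exons, introns and UTRs were not assigned, so a summit at a gene end is not placed at a start or a 3' end.

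**Figure D4:**
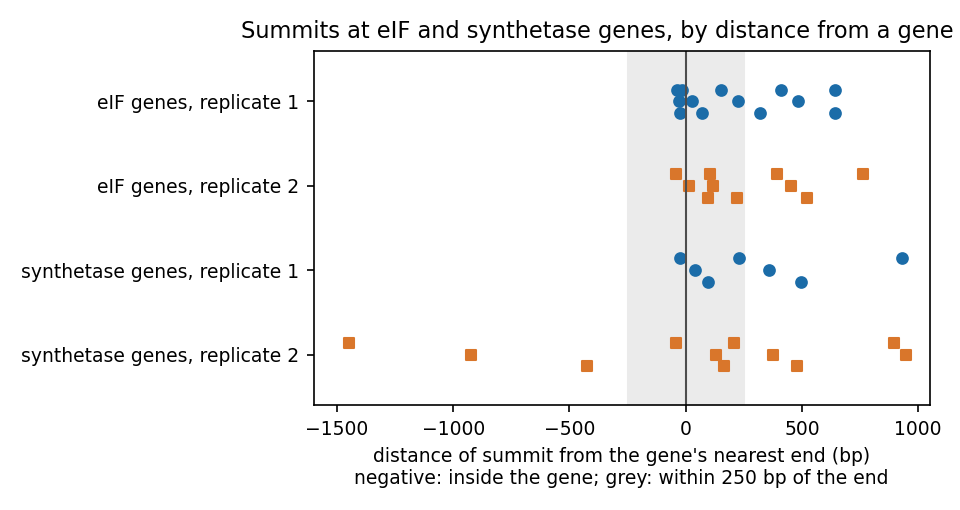
Each point is a summit in the window of an eIF or synthetase gene, placed by its distance in bp from the nearest end of that gene (negative inside, positive outside), in rows by family and replicate; the grey band is 250 bp to either side of the end. Most points lie at or outside the ends, and the summit 16746 bp inside eIF4EHP is beyond the axis and not drawn.

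Where both replicates had a summit, they mostly placed it at the same position. In 12 of the 13 members (92.3%), all but HisRS, the highest summits were within 500 bp of each other, against 83.9% of all genes reached in both. The median distance was 28 bp, against 26 bp. A further 13 of the 76 members were reached in 1 replicate only, 6 in replicate 1 and 7 in replicate 2. Of all 13922 genes, 600 were reached in replicate 1 alone and 1377 in replicate 2 alone. The share reached in both replicates was 17.1% of members and 18.2% of all genes. In at least 1 replicate it was 34.2% and 32.4%. For these 13 members the nearest summit of the other replicate was 1303 bp (SerRS-m) to 58695 bp (eIF3c) away from the summit itself. All were farther than the 500 bp used for pairs. Their percentiles ran from 3.53 (eIF4EHP) to 91.6 (eIF3f1). A summit that is missing in a replicate was not called there, which at unknown depth does not show that the site was unmarked.

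Neither replicate reached the other 50 members, 29 eIF genes (65.9%) and 21 synthetase genes (65.6%), against 67.6% of all genes. Besides eIF4G1, summits of both replicates lay just outside the window of ArgRS-m, at 1397 and 1475 bp. In either list a summit lay within 2000 bp of 4 of the 29 eIF genes and 4 of the 21 synthetase genes. For 13 eIF genes and 7 synthetase genes none lay within 10000 bp in either replicate. These distances were not counted for all unreached genes, so they cannot be called particular to the members. The unreached synthetase genes without -m were ArgRS, AsnRS, AspRS, CysRS, GlyRS, IleRS, LeuRS, LysRS, MetRS, ThrRS, TyrRS and ValRS. The mitochondrial ones were ArgRS-m, AspRS-m, CysRS-m, GluRS-m, LeuRS-m, MetRS-m, PheRS-m, TrpRS-m and TyrRS-m. TyrRS and GluRS-m are neighbours on 3L with 171 bp between them, and the nearest summit to either was 2392 bp away.

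Other genes of the pathway, in 3 lists, were reached in both replicates in 10 of 35 cases (28.6%), against 18.2% of all genes. Together they have a median gene length of 4252 bp, with 6354 bp for regulators of initiation, 2710 bp for elongation and release factors and 1699 bp for the other synthetase genes and partners. Elongation, release and recycling factors gave 4 of 13. They were eEF1alpha1 (73 and 111 fragments in replicates 1 and 2), which delivers tRNA to the ribosome, eEF5 (35 and 35), the ribosome rescue factor gene pelo (29 and 96) and pix (73 and 98), which encodes the recycling ATPase ABCE1. Regulators of initiation gave 5 of 15: cup (103 and 90), the repressor that binds eIF4E, the kinase gene Lk6 (68 and 103), DENR (60 and 47), the poly(A)-binding protein gene pAbp (71 and 64) and the eIF2 kinase gene PEK (17 and 26). Replicate 1 alone reached 3 regulators. They were NAT1 (95 fragments, percentile 83.8), Thor (68 fragments, 72.0), which encodes the eIF4E-binding protein controlled by TOR, and Pdcd4 (37 fragments, 43.55). Replicate 2 alone reached mxt (141 fragments, percentile 95.55). Of the 7 synthetase genes and partners outside the naming rule, AIMP1 was reached in both (22 and 23 fragments, 1982 bp apart). GluProRS, alpha-PheRS, beta-PheRS and Slimp were reached in neither. In replicate 1 the highest summits of pelo, pix, cup, DENR, pAbp, PEK and AIMP1 were also in the window of another gene. Those of eEF1alpha1, eEF5 and Lk6 were not. For pAbp, PEK and AIMP1 the highest summits lay outside the gene in both replicates, for pAbp at 878 and 916 bp.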

How the data were processed

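The submitters' processing notes name MACS 1.4.2, Bowtie2 2.2.6, bcl2fastq 2.19.0.316 and build dm6. The deposited values are 1 bp summits with a signal, the authors' fragment pileup height, called per sample and not scaled to depth. Use of the Dam samples as control, cutoffs and duplicate filters are not given in the sources used here. Replicates were numbered 1 and 2 by accession order, and nothing states that they are separate cultures.

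Gene positions came from the RefSeq gene table for the Release 6 assembly (dm6). It gives no strand, and no genome or promoter sequence was used here, so the planned motif counts were not made. All 76 members and 35 pathway genes matched by symbol. The 20 and 41 summits off the 6 arms entered only the percentiles, which are mid-ranks within a replicate's whole list.

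Members and lists were chosen with earlier results of these data known, so counts are given beside those of all genes with no test. Every member was named, pathway genes mainly where reached in both replicates. Computations used Python 3.11.15 (matplotlib 3.10.9, SciPy 1.17.1, pandas 2.3.3, numpy 2.4.6), and the assignment of summits to genes was checked on simulated positions.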

Additional observations from a re-analysis of the deposited data

How the results depend on the processing

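Alternatives were compared with the 6 eIF and 7 synthetase genes reached in both replicates. Summits inside the gene left 1 eIF gene (2.27%) and 1 synthetase gene (3.12%), against 9.85% of all genes. Summits counted for the nearest gene only, with tied genes all counted, left 1 (2.27%) and 2 (6.25%), against 12.1%. Both settings thus put both families below the share of all genes. Summits above the median height left 5 and 4, against 10.9% of all genes. A summit in either replicate gave 15 and 11 (32.4%). Single replicates gave 9 to 12 eIF genes and 7 to 11 synthetase genes. The difference of eIF minus synthetase share was -8.24 percentage points. It was -13.9 with replicate 2 alone and turned round to 5.40 with replicate 1 alone, so which family had the larger share depended on the replicate. At 500 bp the counts were 5 and 6 (14.8% of all genes), at 2000 bp 7 and 10 (23.3%), and with summits of the replicates within 500 bp of each other 6 and 6 (16.7%). They were 6 and 7 by gene ends alone (14.3%) and with replicate 2 reduced to its 2876 highest summits (16.5%). The eIF median percentile was 79.2 with all summits of a window averaged, against 93.1, and the synthetase median did not move. No paired analysis was possible because only the Dam-Pr-set7 samples were analysed. The counts are small, and unknown depth limits what a missing summit shows.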
